A study of Mus musculus with 9 samples.

Results

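The genes described are those that encode the proteins of the cytosolic ribosome. They were taken by symbol, as Rpl or Rps followed by digits and optional letters, together with Rplp0, Rplp1, Rplp2 and Rpsa. Pseudogenes marked as such in the symbol (-ps) and the Rps6k kinases were left out. Only array rows that list a single gene symbol were used, and the row with the highest mean stood for each gene. This gave 59 of the 19938 genes measured, 37 of the large subunit and 22 of the small subunit. A further 19 symbols of the family, among them Rpl3, Rpl11, Rpl13a, Rpl39 and Rps27, appeared only in rows that also name another gene and were not members. RefSeq classes 58 of the members as protein coding and Rps4l as a transcribed pseudogene. Rps4l was kept and is counted among the small subunit genes below.

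The small ribosomal subunit decodes the messenger RNA, and the large subunit forms the peptide bonds and carries a stalk that recruits the translation factors. Each subunit needs its proteins in matched amounts, and the genes are transcribed strongly in nearly every cell. Most of their messenger RNAs begin with a run of C and T at the very 5′ end, the terminal oligopyrimidine tract, through which growth signals control how well they are translated.

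The RNA came from mammary epithelial cells of wild-type C3H female mice aged 8 to 9 weeks and was measured on 9 Affymetrix arrays. Mammary fat was digested with collagenase in all 3 groups of 3 arrays. Untrypsinized cells had no further step, a trypsin digestion followed for the trypsinized cells, and the mock sorted cells had both trypsin and a mock sort. The replicates are called biological by the labels, which do not say how many animals gave each one, so a p-value reflects just the variation among these preparations and may include technical variation. The labelled cell type was borne out by its markers, since Krt8 lay at 13.84 to 13.94, Epcam at 13.01 to 13.17 and Krt14 at 12.71 to 12.83 in log2 intensity over the 9 arrays.

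Markers of other cells moved between the groups. The 15 endothelial markers summed to intensities of 39982 to 46105 in untrypsinized, 31856 to 32113 in trypsinized and 15489 to 18216 in mock sorted arrays. All 15 fell from trypsinized to mock sorted at a limma adjusted p of 0.05 or below, against 4.2% of all genes. The 8 pericyte markers summed to 14653 to 16380, 11522 to 12065 and 6533 to 7380 in the same order. The 12 lymphocyte markers summed to 5383 to 6356, 8556 to 23622 and 7343 to 20630, and their median log2 level was 10.75 in trypsinized array 1 and 10.47 in mock sorted array 1, against 9.08 to 9.32 in the other arrays of those groups and 8.36 to 8.60 in untrypsinized arrays. From untrypsinized to mock sorted cells, 6 of 8 Schwann cell markers, 9 of 10 fibroblast, 6 of 10 adipocyte and 6 of 10 skeletal muscle markers also fell, as did 4 of 9 macrophage markers. The other 2 Schwann cell markers and 1 skeletal muscle marker rose. The same threshold was used for all of these lists, and 18.0% of all genes fell and 21.0% rose by it. Among epithelial markers, 9 of 14 luminal ones rose and 1 fell, and 6 of 12 basal ones fell and 1 rose. The part of these cells in the results below was not tested. In such bulk RNA, fewer cells of a type and less RNA per cell cannot be told apart.

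The promoter table of RefSeq (build GRCm38.p6) held 47 of the 59 genes. An unbroken run of 8 or more C and T on the gene's strand, within 10 bases of the listed start, was found in 19 of the 47 (40.4%) and in 15.8% of 27025 genes of the table. The windows below run from 15 bases before the listed start to 15 bases from it on, with the C and T run in capitals, and are shown to set genes that fell (Rps12, Rps27l, Rps9) and genes that rose (Rpl38, Rpl28) beside Rps6, which did not pass the test, and beside Rpl12 and Rps21, which changed and have no such run. For Rps12 the run of 11 goes on past the window. The windows of Rpl12 and Rps21 each hold a shorter C and T run, just under the cut-off of 8.

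Rps12: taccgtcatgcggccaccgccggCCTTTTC
Rps27l: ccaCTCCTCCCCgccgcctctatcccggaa
Rps9: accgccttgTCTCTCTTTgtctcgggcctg
Rpl38: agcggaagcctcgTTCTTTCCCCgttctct
Rpl28: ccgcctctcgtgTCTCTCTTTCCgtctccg
Rps6: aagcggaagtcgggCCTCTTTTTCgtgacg
Rpl12: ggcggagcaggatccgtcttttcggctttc
Rps21: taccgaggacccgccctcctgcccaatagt

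These windows lie at chr10:23787195-23787224 on the minus strand for Rps12 and at chr9:66946071-66946100 on the plus strand for Rps27l, which has a second listed start without a run. Rps9 lies at chr7:3704026-3704055 (plus), Rpl38 at chr11:114668565-114668594 (plus) and Rpl28 at chr7:4792950-4792979 (plus). Rps6 lies at chr4:86857353-86857382 (minus), Rpl12 at chr2:32961697-32961726 (plus) and Rps21 at chr2:180257364-180257393 (plus), with a second listed start that also lacks a run. Among members in the promoter table the run was present in 2 of 6 that rose in a comparison with untrypsinized cells, in 3 of 10 that fell and in 14 of 31 that did neither. The motif CCGGAAG, a core of the binding site of ETS factors, was found on either strand of the 300 bases in 18 of the 47 (38.3%) against 9.93% of all genes of the table. AAGATGG, a core of YY1 sites, was found in 4 (8.51%) against 7.28%, and TATAA in 14 (29.8%) against 28.0%. A match is a description of the letters and not of a bound factor.

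Most members lay near the top of the arrays' range. Their median log2 level over the 9 arrays was 12.97, against 9.20 over all genes, and 45 of 59 were among the 5% of genes with the highest signal. Whether signal is compressed at that height was not tested. The member with the highest mean was Rps6, the small subunit protein phosphorylated by the S6 kinases, at 13.71 to 13.79 over the 9 arrays. The lowest was Rpl10l, a paralog known from testis, at 6.58 to 7.04. Rpl10l, Rplp2, Rpl3l and Rpl39l lay below 8.20, which is the 95th percentile of 1027 olfactory receptor genes. Olfactory receptors serve here as genes with little or no signal in this tissue.

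The members varied little between arrays. The median spread within a group (SD) was 0.039 log2 units for them and 0.078 for all genes. This was not particular to the members. The 95% interval of a change reached 0.091 log2 units to either side for the median member and 0.141 for the median gene. It reached 0.086 for 18 translation genes, 0.085 for the 14 luminal and 0.087 for the 12 basal markers. From the lowest to the highest of the 9 arrays, the median member covered 0.19 log2 units and the widest, Rpl14, covered 0.67. Rpl10, which helps shape the peptidyl transferase centre, covered 0.071, and Rpl4, an exit tunnel protein, covered 0.072.

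Trypsin digestion was first set against collagenase alone. Of the 59 genes, 10 passed a threshold of 0.05 on the adjusted p (limma, Benjamini-Hochberg over all genes tested), while 25.4% of all genes did. There were 4 that rose and 6 that fell, against 13.9% and 11.5% of all genes, and none reached the 1.5-fold change of the study's threshold, which 1.46% of all genes passed. At an unadjusted p of 0.05 or below there were 17, against 39.7% of all genes. A limma fit with a variance trend and robust moderation called more members in each direction, as given in the last section. The share of all genes under that fit is not given here. Groups did not overlap for 10 genes that were higher and 18 that were lower, against 25.0% and 19.4% of all genes. The median log2 change was -0.019 over the members and 0.040 over all genes. By the row chosen for each gene, all 5 small subunit genes that changed fell, out of 22, and of 37 large subunit genes 4 rose and 1 fell. A row that Rps13 shares with another symbol rose by 0.52 and passed when adjusted over all rows. Of the 13 rows of Rpl23a, which changed by -0.14 to 0.01, 1 also passed. The difference between the subunits was not tested. The counts changed when single arrays were left out. There were 2 rather than 6 that fell without untrypsinized array 1, trypsinized array 1 or trypsinized array 3, and 3 without untrypsinized array 3. Only 1 rose without trypsinized array 1 or 3, and 2 rose without untrypsinized array 2. Without arrays number 1 of both the trypsinized and the mock sorted group, which hold the most lymphocyte marker signal, 1 rose and 2 fell. Leaving out an array weakens the test for every gene, and the share of all genes called then is not given here. These counts therefore cannot be read as particular to the members or to those arrays.

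**Figure D1:**
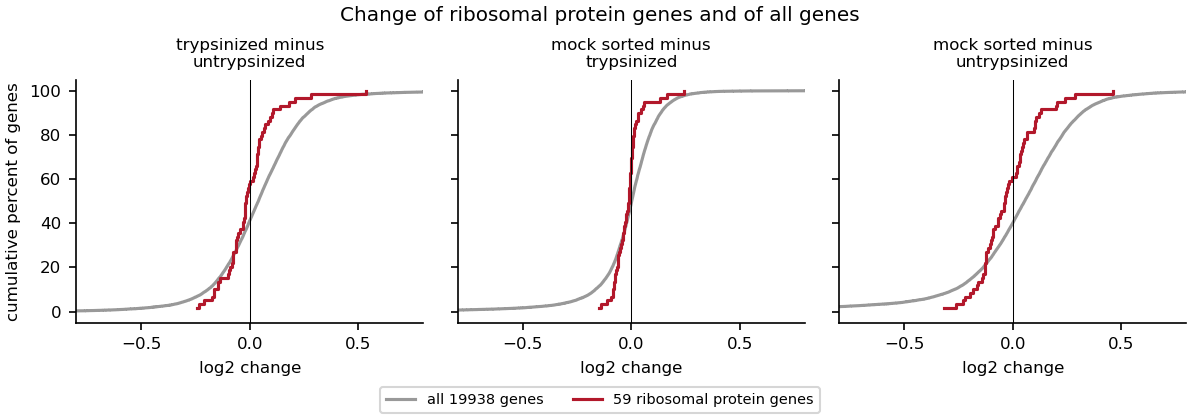
Cumulative percent of genes (vertical axis) by log2 change (horizontal axis) in each comparison, for the 59 ribosomal protein genes (red) and all 19938 genes (grey). The red curves are steeper, and the median member lay at -0.019, -0.0091 and -0.034 from left to right, against 0.040, 0.0022 and 0.055 for all genes.

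Rps27l, a paralog of Rps27 known as a p53 target, was the gene that fell with the smallest p. It stood at 12.34, 12.30 and 12.32 in untrypsinized arrays, at 12.04, 12.15 and 12.04 after trypsin and at 12.10, 12.14 and 12.12 after the mock sort. Both treated groups lay wholly below the untrypsinized one. The change with trypsin was -0.24 (SE 0.040, limma adjusted p = 0.0048).

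Rps3, which lines the messenger RNA entry of the small subunit, stood at 13.10, 13.06 and 13.08 in untrypsinized arrays, at 12.92, 12.95 and 12.88 after trypsin and at 12.91, 12.93 and 12.94 after the mock sort. Both treated groups again lay wholly below the untrypsinized one, and they overlapped each other. The change with trypsin was -0.16 (SE 0.033, limma adjusted p = 0.010). Rps27l and Rps3 are measured by 1 row each, and both held their call under each of the 22 alternatives run. The alternatives that choose among a gene's rows or average them could not alter the values of such genes.

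Rps12, a protein of the small subunit's head, stood at 12.43, 12.28 and 12.41 in untrypsinized arrays, at 12.15, 12.21 and 12.06 after trypsin and at 12.07, 12.01 and 12.09 after the mock sort. The untrypsinized arrays were the highest of the 9. The change with trypsin was -0.23 (SE 0.057, limma adjusted p = 0.020). All 14 of its rows fell, also when adjusted over all 35512 rows, although these hold only 8 distinct sets of values. The call was lost without untrypsinized array 1 or 3 or trypsinized array 1 or 3, where the largest adjusted p was 0.067.

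The other genes that fell with trypsin were the pseudogene Rps4l, by 0.21, Rps21, by 0.18, and Rpl22, by 0.15. Rpl22 is a large subunit protein that cells can do without in most tissues, and it was the large subunit gene that fell. Rps21 has a second row, which changed by -0.07 and did not pass the test. These 3 calls were each lost without at least 1 array.

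**Figure D2:**
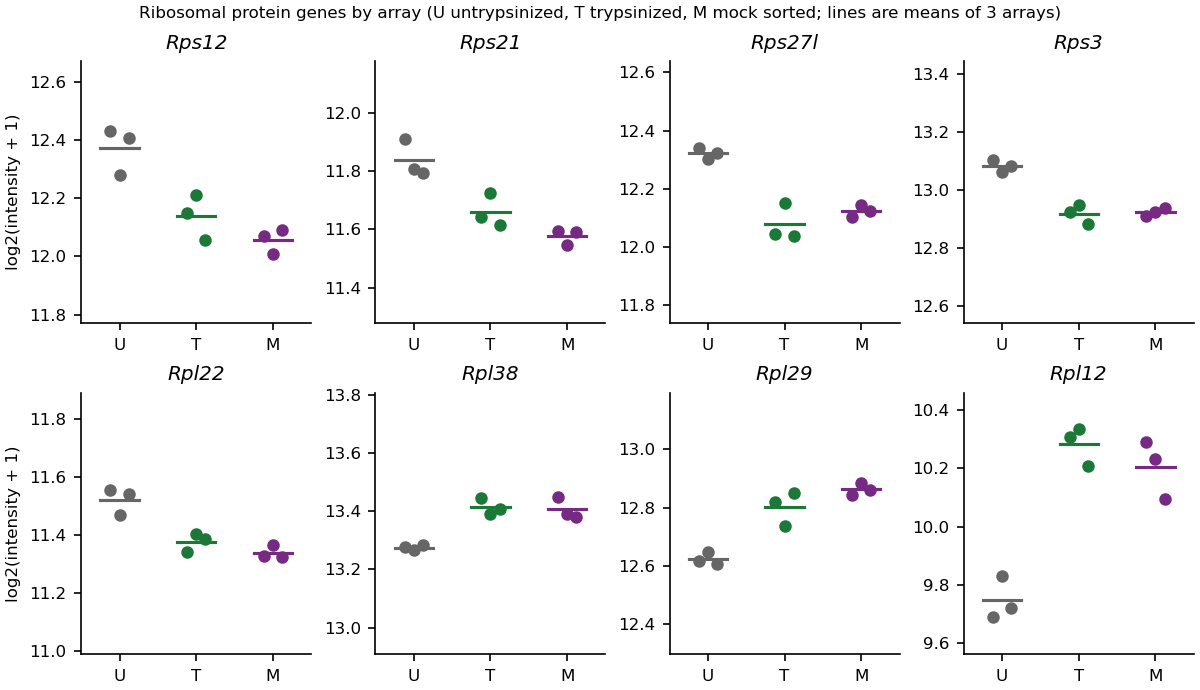
Log2(intensity + 1) of 8 ribosomal protein genes on each of the 9 arrays, with 1 point per array, a line at each group mean and a vertical span of 0.9 log2 units in each panel. Rps12, Rps21, Rps27l, Rps3 and Rpl22 were highest in untrypsinized arrays, and Rpl38, Rpl29 and Rpl12 were lowest there.

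Of the genes that rose with trypsin, Rpl38, known for its part in translating Hox messenger RNAs, stood at 13.28, 13.27 and 13.28 in untrypsinized arrays and at 13.44, 13.39 and 13.41 after trypsin. After the mock sort it stood at 13.45, 13.39 and 13.38. The groups did not overlap with untrypsinized cells, and the change with trypsin was 0.14 (SE 0.035, limma adjusted p = 0.022). All 4 of its rows rose.

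Rpl29, a small protein on the surface of the large subunit, stood at 12.62, 12.65 and 12.61 in untrypsinized arrays, at 12.82, 12.74 and 12.85 after trypsin and at 12.84, 12.89 and 12.86 after the mock sort. The change with trypsin was 0.18 (SE 0.039, limma adjusted p = 0.014). In 35 rows that list Rpl29 together with another symbol the change was 0.06 to 0.15, and 7 of them passed the test. Rpl26, which is also known to bind p53 messenger RNA, changed by 0.21 (SE 0.055, limma adjusted p = 0.028) in its single row. In 3 rows it shares with other symbols it changed by 0.05 to 0.06, and none of these passed.

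Rpl12, a protein at the base of the stalk, had the largest change and also the least settled identity. Its row stood at 9.69, 9.83 and 9.72 in untrypsinized arrays, at 10.31, 10.33 and 10.21 after trypsin and at 10.29, 10.23 and 10.09 after the mock sort. The change with trypsin was 0.54 (SE 0.064, limma adjusted p = 0.0013) and held under each of the 22 alternatives. Those that choose among a gene's rows or average them could not alter it, since Rpl12 has 1 single-symbol row. This row lists a clone and no RefSeq messenger RNA. In 7 rows that list the RefSeq messenger RNA of Rpl12 beside another symbol the change was -0.0049 to 0.040, and none passed the test. An eighth shared row, which also names a small nucleolar RNA, rose by 0.47. Whether the row measures the Rpl12 messenger RNA was not tested. With the 56 members whose row lists a RefSeq messenger RNA, 3 rose and 5 fell.

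**Figure D3:**
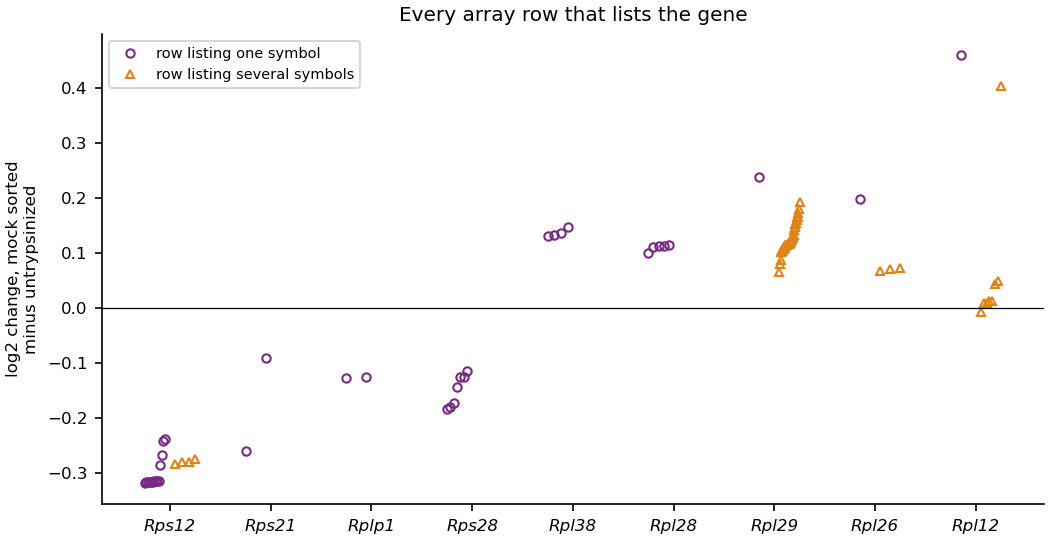
Log2 change from untrypsinized to mock sorted cells (vertical axis) in every array row that lists each of 9 genes, as circles for rows with that symbol alone and triangles for rows with several symbols. The 14 circles of Rps12 all lie below 0 and the 4 of Rpl38 above it, while 7 of the 8 triangles of Rpl12 lie near 0 and its circle at 0.46.

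The mock sort was then set against trypsin alone. None of the 59 genes changed in this comparison by limma's adjusted p, while 4.67% of all genes did (0.466% higher and 4.2% lower), and none reached 1.5-fold, against 1.19% of all genes. At an unadjusted p of 0.05 or below there were 3, against 17.2% of all genes. A limma fit with a variance trend and robust moderation called 1 lower. Groups did not overlap for 1 gene that was higher and 8 that were lower, against 9.74% and 14.3% of all genes. The 95% interval of every one of the 59 changes lay within 1.5-fold in either direction. The 3 genes with the smallest p were Rps9, at -0.15 (SE 0.051, limma adjusted p = 0.17), Rpl37a, at -0.14 (adjusted p = 0.21 by limma), and Rpl39l, at 0.24 (SE 0.090, limma adjusted p = 0.21). In this comparison 53 of the 59 changes were within 0.1 log2 units, and the median was -0.0091 beside 0.0022 for all genes.

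The comparison of mock sorted with untrypsinized cells covers both steps and shares its arrays with the comparisons above. Of the 59 genes, 21 changed by limma's adjusted p, against 39.0% of all genes. There were 8 that rose and 13 that fell, against 21.0% and 18.0% of all genes, and none reached 1.5-fold, against 4.47%. By the row chosen for each gene, the 8 that rose all belong to the large subunit, where 4 of 37 fell. In the small subunit 9 of 22 fell and none rose by that row. At an unadjusted p of 0.05 or below there were 27, against 49.3%. The fit with a variance trend and robust moderation called more members that fell, also without the share of all genes given here. The median log2 change was -0.034 over the members, -0.0046 over the large and -0.094 over the small subunit, and 0.055 over all genes. The difference between the subunits was not tested. Groups did not overlap for 12 genes that were higher and 23 that were lower, against 28.7% and 23.4% of all genes. For 5 genes that did not pass, namely Rpl23a, Rpl7a, Rps15, Rps25 and Rps4x, at least 1 other single-symbol row passed when adjusted over all rows. The 13 rows of Rpl23a changed by -0.13 to 0.03, and 6 passed. In Rpl7a the chosen row changed by -0.03, its 3 rows reached up to 0.20, and 1 passed. The 3 rows of Rps15 changed by 0.02 to 0.21, and 1 passed as higher. A row that Rps13 shares with another symbol, and that lists no RefSeq messenger RNA, rose by 0.55 and passed.

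Leaving out single arrays changed these counts too. The number that rose was 3 without untrypsinized array 2 or mock sorted array 1, 4 without untrypsinized array 3 or mock sorted array 2 or 3, and 5 without untrypsinized array 1 or trypsinized array 2. The number that fell was 7 without untrypsinized array 1 and 8 without mock sorted array 2 or 3. Without arrays number 1 of both the trypsinized and the mock sorted group, 3 rose and 8 fell. The share of all genes called without these arrays is not given here either, so the same limit applies.

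**Figure D4:**
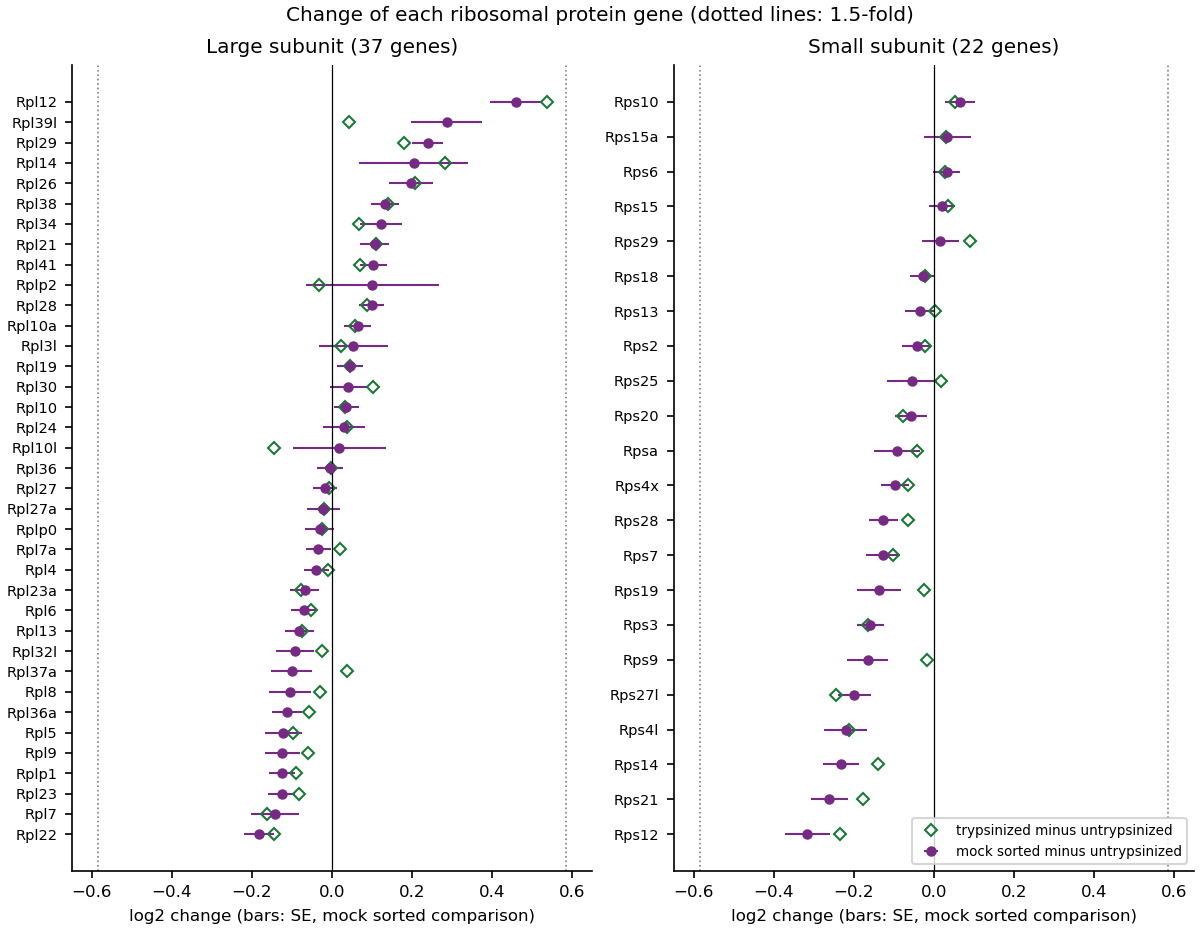
Log2 change of each of the 37 large subunit genes (left) and 22 small subunit genes (right), with filled circles and SE bars for mock sorted minus untrypsinized and open diamonds for trypsinized minus untrypsinized. All points lie inside the dotted lines at 1.5-fold, and the small subunit reaches from Rps12 at -0.32 to Rps10 at 0.07.

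In the small subunit, Rps12 changed by -0.32 (SE 0.057, limma adjusted p = 0.0033), the largest fall of any member. Rps21 stood at 11.91, 11.81 and 11.79 in untrypsinized arrays, at 11.64, 11.73 and 11.61 after trypsin and at 11.59, 11.55 and 11.59 after the mock sort. The mock sorted arrays were below all others, and the change was -0.26 (SE 0.046, limma adjusted p = 0.0033). Its second row changed by -0.09 and did not pass the test.

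Rps14, known from its loss in the 5q- syndrome, stood at 12.68, 12.56 and 12.60 in untrypsinized arrays, at 12.48, 12.52 and 12.43 after trypsin and at 12.40, 12.42 and 12.34 after the mock sort. The mock sorted arrays lay below both other groups, and the change from untrypsinized was -0.23 (SE 0.044, limma adjusted p = 0.0046). Both of its rows fell. Rps27l changed by -0.20 (SE 0.040, limma adjusted p = 0.0058), Rps3 by -0.16 (SE 0.033, limma adjusted p = 0.0067) and Rps4l by -0.22 (SE 0.053, limma adjusted p = 0.013).

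Rps9 fell by 0.17 with a limma adjusted p of 0.033, while its second row changed by -0.03. Rps7 and Rps28, named after their values were seen, each fell by 0.13. All 7 rows of Rps28 had a negative change, of which 5 passed the test. None of the 3 rows of Rps7 passed when adjusted over all rows, and its call held under 9 of 21 alternatives. Rpsa, which is also known as a laminin receptor, Rps19, the gene most often mutated in Diamond-Blackfan anaemia, and Rps4x did not pass the test, at -0.09, -0.14 and -0.10. The 5 rows of Rps4x changed by -0.14 to -0.09, and 2 of them passed when adjusted over all rows. Rps6 was at 0.03 (SE 0.035, limma adjusted p = 0.48).

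In the large subunit, Rpl29 changed by 0.24 (SE 0.039, limma adjusted p = 0.0022), and its 35 shared rows changed by 0.07 to 0.19, of which 31 passed the test. Rpl26 changed by 0.20, Rpl38 by 0.13, Rpl21 by 0.11 and Rpl28 by 0.10, and Rpl41, the smallest protein of the ribosome, named after its value was seen, by 0.10. All 5 rows of Rpl28 passed the test as higher, but its call held under only 9 of 21 alternatives. It was lost under the 3 other scalings, with the replicate block and without any single untrypsinized or mock sorted array. All 9 rows of Rpl21 had a positive change, from 0.05 to 0.11, and 2 of them passed. The call of Rpl21 held under 7 of 21 alternatives. Rpl22 fell by 0.18 (SE 0.038, limma adjusted p = 0.0066), and its arrays stood at 11.56, 11.47 and 11.54 in untrypsinized, 11.34, 11.40 and 11.39 in trypsinized and 11.33, 11.37 and 11.32 in mock sorted cells, with no overlap of untrypsinized with the rest. Rpl36a fell by 0.11 and Rpl23, named after its value was seen, by 0.13. None of the 2 rows of Rpl36a passed when adjusted over all rows. Nor did the 3 rows of Rpl41, which hold the same values. The calls of Rpl36a and Rpl41 held under 10 and 6 of 21 alternatives. Rpl5, which carries 5S ribosomal RNA and binds Mdm2, was at -0.12 (SE 0.046, limma adjusted p = 0.069), and Rpl4 and Rpl10 were at -0.04 and 0.04.

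The stalk of the large subunit is built from Rplp0 with dimers of Rplp1 and Rplp2. Rplp1 stood at 13.77, 13.76 and 13.71 in untrypsinized arrays, at 13.66, 13.67 and 13.63 after trypsin and at 13.61, 13.61 and 13.64 after the mock sort. Its change from untrypsinized to mock sorted was -0.13 (SE 0.033, limma adjusted p = 0.018), and both of its rows fell. Rplp0 was at -0.03 (SE 0.036, limma adjusted p = 0.52). The row of Rplp2 lists no RefSeq messenger RNA and lay at 6.79 to 7.29, within the range of the olfactory receptor genes.

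Among the paralogs, Rpl39l, known from testis, stood at 7.75, 7.75 and 7.96 in untrypsinized arrays, at 8.00, 7.89 and 7.69 after trypsin and at 8.03, 8.12 and 8.16 after the mock sort. Its change from untrypsinized to mock sorted was 0.29 (SE 0.090, limma adjusted p = 0.035) at a level near that of genes with little signal. The change was 0.10 to 0.18 under the 3 other scalings, and the call was lost in each of them. It was also lost with the replicate block (adjusted p = 0.064 by limma) and without untrypsinized array 1 or 2, trypsinized array 2 or mock sorted array 2 or 3. Rpl3l, a paralog of striated muscle, was at 0.05 and Rpl10l at 0.02, neither of which passed the test. Rpl32l was at -0.09 (SE 0.047, limma adjusted p = 0.15).

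The scaling of the arrays set the zero from which changes were read. Giving every array the same median intensity, taken over all rows, moved the median of all genes from 0.05 to -0.09 in mock sorted against untrypsinized cells and from 0.04 to -0.09 in trypsinized against untrypsinized cells. It lowered every gene alike, by 0.15 and 0.13 log2 units. Under that scaling 1 member rose and 34 fell in the first comparison, against 6.18% and 34.1% of all genes, and 1 rose and 21 fell in the second, against 3.74% and 28.4% of all genes. Through that shift alone, Rpl38, Rpl28, Rpl21 and Rpl41 then lay at -0.02, -0.05, -0.04 and -0.05. Relative to the median of all genes they stayed above it under each scaling other than the deposited one, at the least by 0.077, 0.045, 0.052 and 0.049. Rpl29 and Rpl26 also lost the call under the common median, at 0.09 and 0.05 in mock sorted against untrypsinized cells. In trypsinized against untrypsinized cells Rpl29, Rpl26 and Rpl38 lost it too, at 0.05, 0.07 and 0.005. Taken relative to the median of all genes, the members' median in trypsinized against untrypsinized cells was -0.06 as deposited and under the common median, -0.02 under quantile normalization of the tested genes and 0.02 under quantile normalization of all rows. In mock sorted against untrypsinized cells it was -0.09, -0.09, -0.08 and -0.03 in the same order.

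**Figure D5:**
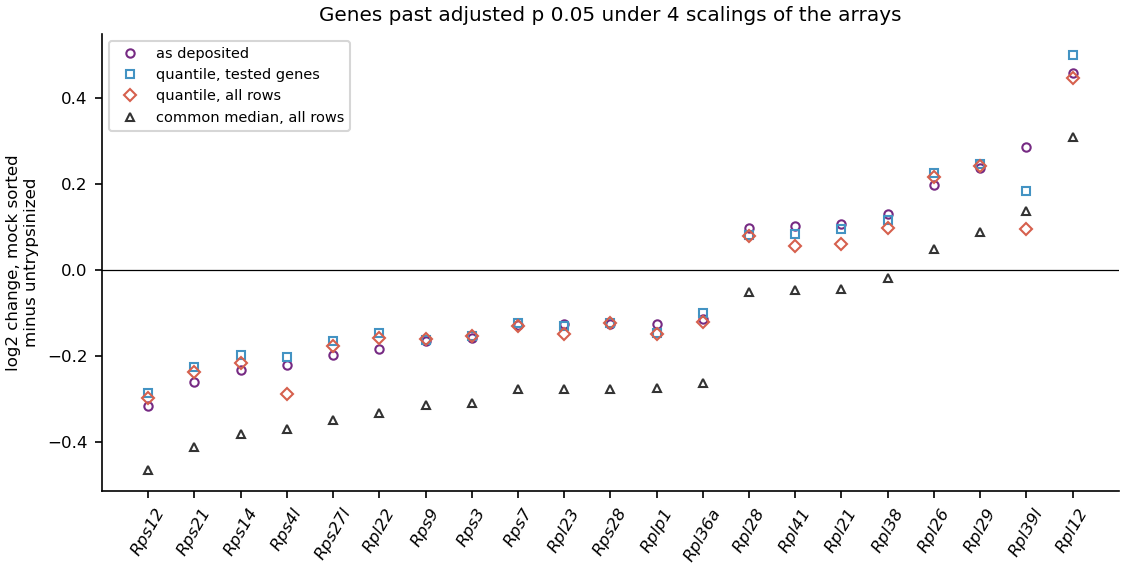
Log2 change from untrypsinized to mock sorted cells (vertical axis) of the 21 genes that passed the test, under the deposited scaling and 3 others. The 13 that fell stay below 0 in all 4, while Rpl28, Rpl41, Rpl21 and Rpl38 lie between -0.05 and -0.02 when every array is given the same median, which lowers every gene by 0.15.

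Genes that work with the ribosome were read beside its proteins. Of 18 elongation factors and other translation genes, none rose and 1 fell with trypsin, and 2 fell from untrypsinized to mock sorted cells, namely Eef1d, an exchange factor subunit, by 0.17 and Eif3h, an initiation factor subunit, by 0.13. Of 32 ribosome biogenesis genes, 8 rose and 3 fell with trypsin, where 13.9% of all genes rose and 11.5% fell. After both steps 8 rose and 8 fell, where 21.0% of all genes rose and 18.0% fell. Rrp12, which helps export the subunits, rose by 0.42 with trypsin and by 0.46 after both steps, and Heatr1, a processome factor, rose by 0.31 and 0.33. Wdr12, which acts in large subunit maturation, fell by 0.38 after both steps. None of either group changed between trypsin and the mock sort.

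The proteins of the mitochondrial ribosome are encoded by other genes, of which 77 were measured. With trypsin 2 rose and 12 fell, and after both steps 4 rose and 19 fell, which is to be read against the same shares of all genes. Mrpl42 fell by 0.75 after both steps (SE 0.107, limma adjusted p = 0.0011), past 1.5-fold, and Mrpl13 fell by 0.38. Snhg5, a host of small nucleolar RNAs and 1 of the 2 such hosts measured, rose by 0.23 with trypsin.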

How the data were processed

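The authors deposited 1 intensity per row and array, on a linear scale, for 9 arrays. How background was corrected, probes summarized and arrays scaled is not given in the sources used here, and limma is named in the submitters' processing notes. Of 35512 rows, 21789 had 1 gene symbol in the platform annotation, which can be old, and symbols were updated with RefSeq. Values were log2 of intensity plus 1, so a fold of a dim gene is understated. Group means of all 9 arrays were compared with limma 3.58.1 in R 4.3.3 (lmFit and eBayes), and p-values were adjusted over 19938 genes by the Benjamini-Hochberg method. It was tested on simulated data. A gene passed if its adjusted p did not exceed 0.05, and the study's rule adds 1.5-fold without saying whether p was adjusted. The number of arrays limits the precision.

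Members, lists and the rule for named genes were chosen with earlier results of these data known. The rule names, in each comparison, the 5 rises and 5 falls with the smallest p, the highest and lowest member, paralogs ending in l, a list of well-known members, and up to 4 genes of each other list. Not every gene it gives is named.

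All groups use the replicate numbers 1 to 3. Over genes, departures of an array from its group mean correlated at 0.53, 0.29 and 0.29 for same-numbered trypsinized and mock sorted arrays, so these numbers were taken as paired from the data. For arrays of these groups with different numbers the correlation was -0.36 to 0.16. Same-numbered arrays correlated at 0.11, 0.04 and -0.04 for untrypsinized with trypsinized and at 0.32, 0.18 and 0.06 for untrypsinized with mock sorted, which were not taken as paired. The main fit used no pairing, and the replicate block applied the numbers to all 3 groups. Alternatives covered scaling, pseudocount, filter, row choice, variance model, replicate block and leaving out each array. Restricting members to rows with a RefSeq messenger RNA, and leaving out 2 arrays together, were chosen after seeing the data.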

Additional observations from a re-analysis of the deposited data

How the results depend on the processing

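No member passed 1.5-fold under any setting run. Of 31 changes past the threshold, 10 kept it under every setting run for them, namely Rpl12, Rps27l and Rps3 in both comparisons with untrypsinized cells and Rpl22, Rps12, Rps14 and Rps21 in mock sorted against untrypsinized cells. Rpl12, Rps27l, Rps3 and Rpl22 have 1 single-symbol row each. Settings that choose among rows or average them could not alter their values, so genes with several rows met a harder check. Over all 31, 520 of 664 values kept the call, 140 lost it and 4 changed sign, all with the arrays at a common median, which lowers every gene by 0.15 (Rpl21 -0.042, Rpl28 -0.050, Rpl38 -0.017, Rpl41 -0.046). That scaling gave 1 higher and 21 lower with a median of -0.153 for trypsinized, and 1 higher and 34 lower with a median of -0.183 for mock sorted, against untrypsinized cells. With quantile normalization over all rows there were 4 higher and a median of -0.069 for mock sorted. The robust variance trend gave 7 higher and 15 lower for trypsinized, 20 lower for mock sorted against untrypsinized and 1 lower for mock sorted against trypsinized. Genes with 1 row gave 3 lower for trypsinized, and 4 higher and 3 lower with a median of 0.026 for mock sorted. The 6 arrays compared alone gave 4 higher for mock sorted. With both arrays number 1 left out, added after seeing the data, 1 rose and 2 fell for trypsinized and 3 rose and 8 fell for mock sorted.

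Leaving out 1 array gave 1 to 4 higher, 2 to 6 lower and a median of -0.033 to 0.0043 for trypsinized against untrypsinized. It gave 0 and 0 with a median of -0.023 to -0.0079 for mock sorted against trypsinized. It gave 3 to 6 higher, 7 to 13 lower and a median of -0.045 to -0.021 for mock sorted against untrypsinized. Apart from the common median, the share of all genes called under each setting is not given here. The counts of this section therefore cannot be read as particular to the members. With the replicate block, 4 rose and 5 fell for trypsinized, 5 rose and 13 fell for mock sorted against untrypsinized, and 0 changed for mock sorted against trypsinized, the comparison the numbers pair. With 3 arrays a group, the 95% interval of the median member reached 0.091 log2 units to either side.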
